A study of Petromyzon marinus with 4 samples.

Results

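SYCP3, REC8, TERB1, TERB2 and MAJIN are genes of the meiotic chromosome axis and of the attachment of its telomeres to the nuclear envelope. They were taken by symbol from the feature list of a single-cell RNA study of sea lamprey (Petromyzon marinus) gonads. All 5 were listed, among 21943 features with a gene name and 21967 features in all. The study made 1 library from a female transformer, 1 from a male transformer and 2, labelled as biological replicates, from larvae whose gonads had not differentiated into ovary or testis. A transformer is a lamprey that has gone through metamorphosis. All animals were wild-caught, labelled wild type and of unknown age, and the sex of the larvae was not determined. Gonads were dissociated, a flow sorter enriched live cells, and 3′ ends of polyadenylated RNA were counted with a PIPseq kit. How many animals went into a library is not given in the sources used here. With 1 library of each sex, female and male values have no replicate check, and their intervals cover counting error only.

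SYCP3 is a coiled-coil protein of the axis on which sister chromatids are arranged as loops during meiotic prophase. REC8 is the meiotic kleisin, a subunit of the cohesin ring that holds sister chromatids together and forms part of the same axis. In mouse, TERB1, TERB2 and MAJIN form a complex that ties telomeres to the inner nuclear membrane, where they are moved along the envelope while homologous chromosomes find each other. TERB1 binds the telomere protein TRF1, TERB2 links TERB1 to MAJIN, and MAJIN is the membrane-anchored subunit. These roles are background from other vertebrates and were not measured here.

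A barcode was taken as a cell if it had at least 250 genes and a minimum of counts that was the same in all libraries. This gave 30598 female cells, 40223 male cells, 19654 cells of larva 1 and 20592 of larva 2, with median depths of 4714, 7475, 5454.5 and 5918 counts per cell. The libraries shared between 6 and 13 cell barcodes with each other. Cells were clustered and named from marker genes with the 5 genes left out, and 24 of 50 germ cell markers were in the feature list. Germ cell-like cells were 691 of 29003 clustered female cells (2.38%), 27474 of 38210 male cells (71.9%), 1395 of 18655 cells of larva 1 (7.48%) and 1425 of 19524 cells of larva 2 (7.30%). Renal tubule-like clusters held 5025 female cells and 1035 and 1126 larval cells. Only 4 of 9 supporting cell markers were listed and no cluster was named from them, so the somatic cells of the gonad stay mostly unnamed. Levels are counts scaled to the same total of counts over named features (CPM) in the stated set of cells, and since a 3′ count depends on the transcript's end, they are compared between cells and not between genes. Sums over all cells cannot tell apart more cells of a type from more RNA per cell.

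The axis gene SYCP3 was highest in the male library and lowest in the female one, with the larvae between. Over all cells it had 2.15 CPM in the female library (95% exact Poisson interval 1.96 to 2.36, 454 counts) and 158 CPM in the male library (157 to 160, 50573 counts). The larval libraries had 23.5 and 25.9 CPM, a mean of 24.7 ± 1.67 CPM (SD, n = 2). The female value lay below both larval values and the male value above both, as in 17.7% of 19308 features. The log2 ratio of the female over the male level was -6.21 (counting interval -6.34 to -6.07), and 18.6% of 18938 features with at least 20 counts in these libraries had a ratio of -1 or lower. Within germ cell-like cells pooled per library the order was the same, with 14.6 CPM in female cells, 191 CPM in male cells, and 70.3 and 79.3 CPM in the larvae. These values depend on the mix of clusters: in larval cluster 24, described below, SYCP3 was as high as in the main male clusters. The log2 ratio of female over male germ cell-like cells was -3.71 (-3.91 to -3.52). The female value rests on few cells: 4 of the 691 held 163 of the 222 SYCP3 counts, and the others had 3.88 CPM.

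SYCP3 came mostly from germ cell-like cells except in the female library. These cells held 48.9% of the female SYCP3 counts and 7.20% of all female counts. They held 87.8% of the SYCP3 counts in the male library, 87.4% in larva 1 and 90.4% in larva 2, against 73.0%, 29.3% and 29.5% of all counts. All other clustered cells, apart from clusters set aside as mixtures of germ and somatic genes, had 1.18 CPM (female), 8.08 CPM (male), 2.73 CPM (larva 1) and 2.56 CPM (larva 2). Barcodes at ranks 40000 to 80000 by counts are called barcodes without cells below. They had 1.59 CPM (female), 128 CPM (male), 15.4 CPM (larva 1) and 14.5 CPM (larva 2). Their median depths were 311 (female), 375 (male), 131 (larva 1) and 135 (larva 2) counts. With 40223 cells in the male library, its range took in some called cells and the barcodes just under the minimum of counts. The male level is thus not one of free RNA alone, and the range is not matched between libraries. How much the called cells added to the male level was not tested. At a median of 375 counts, the male range was mostly far shallower than called cells. That male level was far above the one in male somatic cells, and the part of free RNA in the values of single cells was not tested.

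REC8 was sparse everywhere and showed no difference between the female and male libraries that its counts could carry. Its counts numbered 85 (female), 140 (male), 100 (larva 1) and 151 (larva 2). These made 0.402 CPM (0.321 to 0.497) in female cells, 0.439 CPM (0.369 to 0.518) in male cells, and 0.559 and 0.735 CPM in the larvae (mean 0.647 ± 0.125 CPM, SD, n = 2). Both larval values lay above both transformer values. The interval of larva 2 (0.623 to 0.862) was clear of the transformer ones and that of larva 1 (0.455 to 0.680) was not. The log2 ratios over the larval mean were -0.69 (female) and -0.56 (male) by total counts, and -0.27 and -0.21 with TMM scaling factors. The interval of the female over the male log2 ratio, -0.13 (-0.53 to 0.27), spans no difference. In germ cell-like cells the levels were 0.525 CPM (female), 0.477 CPM (male), 0.802 CPM (larva 1) and 0.791 CPM (larva 2). The larval intervals there (0.578 to 1.08 and 0.583 to 1.05) lay above the male one (0.392 to 0.574) but overlapped the female one (0.227 to 1.04). Of the REC8 counts, germ cell-like cells held 9.41% (female), 79.3% (male), 42.0% (larva 1) and 31.8% (larva 2), which is close to their share of all counts except in larva 1. Barcodes without cells had 0.957 CPM (female), 0.609 CPM (male), 0.394 CPM (larva 1) and 0.582 CPM (larva 2), with 12, 12, 2 and 3 counts, so REC8 in cells did not stand above them.

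With all cells kept, TERB2 had the widest female to male difference of the 5 genes. It had 2.09 CPM in female cells (1.90 to 2.29), 223 CPM in male cells (221 to 225), and 11.5 and 11.6 CPM in the larvae (mean 11.5 ± 0.0854 CPM, SD, n = 2). The male level lay far above both larval values and the female level below them. Of 19308 features, 17.7% had the male above and the female below both larval libraries. Barcodes without cells had the same order, with 1.91 CPM (female), 192 CPM (male), 15.9 CPM (larva 1) and 11.3 CPM (larva 2). The male ones include some called cells, as stated above. Its log2 ratio of female over male was -6.74 (-6.88 to -6.60) over all cells and -4.39 (-4.60 to -4.18) in germ cell-like cells. Germ cell-like cells had 12.7 CPM (female), 267 CPM (male), 26.3 CPM (larva 1) and 27.8 CPM (larva 2). TERB2 and SYCP3 did not keep the same proportion between stages. In pooled germ cell-like cells the male level was 9.86 times the larval mean for TERB2 and 2.55 times for SYCP3. Both values depend on the mix of clusters.

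TERB1, the telomere-side partner of TERB2, was low in all libraries and highest in the male one. It had 0.790 CPM in female cells (0.675 to 0.920, 167 counts), 3.86 CPM in male cells (3.65 to 4.08, 1231 counts), and 1.40 and 1.44 CPM in the larvae (mean 1.42 ± 0.0311 CPM, SD, n = 2). The female value lay below both larval values and the male value above both, as in 17.7% of 19308 features. The log2 ratio of female over male was -2.29 (-2.53 to -2.05). In germ cell-like cells TERB1 had 1.12 CPM (female), 4.68 CPM (male), 2.18 CPM (larva 1) and 2.55 CPM (larva 2). Barcodes without cells had similar levels of 1.12 CPM (female), 4.67 CPM (male), 1.77 CPM (larva 1) and 2.13 CPM (larva 2).

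MAJIN, the membrane anchor, did not share the high male level of its partners. Over all cells the male level was just under the larval mean by total counts (log2 ratio -0.10) and just over it with TMM scaling factors (0.26), which raised the male to larva ratios of all features by 0.36. It had 1.90 CPM in female cells (1.72 to 2.10), 9.15 CPM in male cells (8.82 to 9.49), and 10.1 CPM (9.64 to 10.6) and 9.46 CPM (9.05 to 9.89) in larvae 1 and 2. Larva 2 and the male library did not differ beyond their counting intervals. The log2 ratio of female over male was -2.27 (-2.42 to -2.11). Barcodes without cells had MAJIN at 2.23 CPM (female), 10.501 CPM (male), 9.06 CPM (larva 1) and 9.51 CPM (larva 2), close to the level of each library as a whole. In germ cell-like cells MAJIN had 3.09 CPM (female), 10.7 CPM (male), and 19.4 and 19.5 CPM in the larvae, whose mean was 19.5 ± 0.0841 CPM (SD, n = 2), so here the male level was 0.549 times the larval mean. In the gene table of the RefSeq assembly UKy_Petmar_22M1.pri1.0 MAJIN overlaps LOC116956967 and LOC116957957. Whether reads were counted by strand is not given in the sources used here, so MAJIN counts could be shared with these neighbours and are uncertain. SYCP3 had no entry in that gene table, so its overlap with other genes could not be checked.

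**Figure D1:**
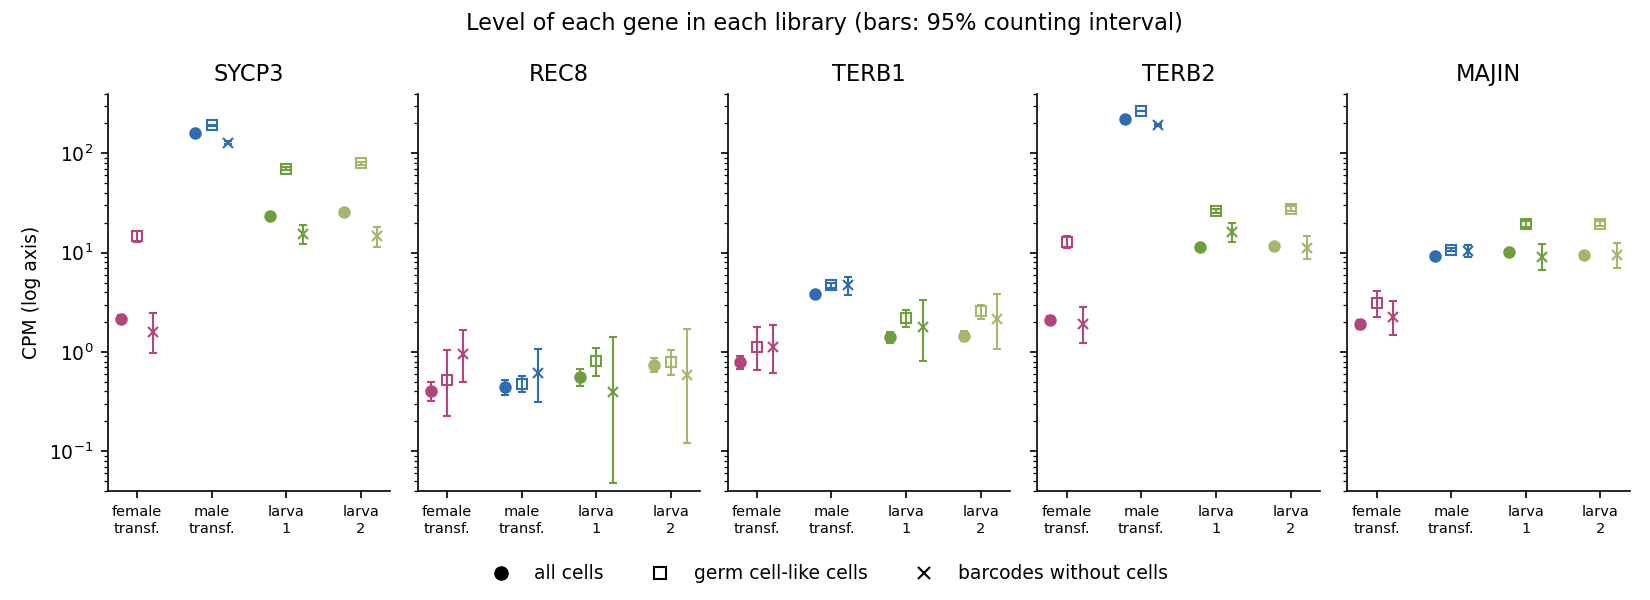
Level of each gene (CPM, log axis) in each library, over all cells (filled circles), in germ cell-like cells (open squares) and in barcodes without cells (crosses), with 95% counting intervals. In the male library the crosses include some called cells. SYCP3 and TERB2 are at 158 and 223 CPM over all male cells and near 2 CPM over all female cells, while REC8 stays under 1 CPM in every library.

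SYCP3, TERB1, TERB2 and MAJIN, 4 of the 5 genes, had a log2 ratio of female over male of -1 or lower over all cells, where 18.6% of features did, and none had 1 or higher, where 14.6% did. In germ cell-like cells the same 4 genes had -1 or lower, against 23.3% of 18449 features. SYCP3, TERB1 and TERB2 were below both larval libraries in the female and above both in the male library over all cells, as were 17.7% of 19308 features, and the same 3 were so in germ cell-like cells, as were 16.8% of 18896 features.

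No difference between the transformer and the larval libraries was called for any of the 5 genes. The test took the female and the male library as 1 group against the 2 larval ones, so their difference counted as spread. It is thus poorly suited to genes such as SYCP3, at 2.15 CPM in the female and 158 CPM in the male library. The lack of calls does not show that the stages are alike. With edgeR's quasi-likelihood test and Benjamini-Hochberg adjustment, 0 of 19026 features passed an adjusted p of 0.05 over all cells (0%) and 0 of 18086 in germ cell-like cells (0%), while 3380 and 2766 were under 0.05 before adjustment, and 1829 and 625 were called by DESeq2. For SYCP3 the log2 fold change of transformer over larva was 2.06 ± 1.94 (SE, edgeR adjusted p = 0.607). The edgeR adjusted p over all cells was 0.455 for TERB2, 0.543 for TERB1, 0.632 for REC8 and 0.786 for MAJIN. Fits with only the male or only the female library against the larvae took the spread from the 2 larval libraries alone. Most features tested passed in them, so a pass there marks no gene out. In those fits SYCP3 was at a log2 fold change of 3.03 in the male library and of -3.07 in the female library.

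The germ cell-like cells formed clusters that belonged mostly to 1 group each. Female cells were nearly all in cluster 30 (680 cells, beside 79 male cells). Male cells were mostly in cluster 0 (21206 cells) and cluster 7 (4359 cells), and larval cells in cluster 17 (882 and 874 cells in larvae 1 and 2) and cluster 24 (497 and 528 cells). Cluster 19 held 6 female cells, 1460 male cells and 9 cells of each larva, and its leading genes included SPC25 and NUF2, which encode kinetochore proteins.

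The larval germ cells of cluster 24 had more of 3 of the genes than those of cluster 17. SYCP3 was at 189 and 226 CPM in cluster 24 (larvae 1 and 2), against 39.3 and 43.5 CPM in cluster 17. TERB2 was at 85.1 and 85.3 CPM in cluster 24, against 12.8 and 14.4 CPM in cluster 17. MAJIN was at 33.8 and 37.4 CPM in cluster 24, against 16.7 and 15.7 CPM in cluster 17. Both libraries gave the same order for each of these genes, and the counting intervals of the clusters did not overlap. Within a library, cluster 24 also had higher levels of the germ cell genes BOLL, a translational regulator (66.6 and 80.4 CPM, against 6.75 and 8.41 CPM in cluster 17), and TEX11, a crossover factor (18.5 and 12.003 CPM, against 2.49 and 1.68 CPM). MEIOC, which in mouse sustains entry into meiosis, was at 0.717 and 0.567 CPM in cluster 24, against 2.69 and 2.88 CPM in cluster 17.

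Female cluster 30 had little of any of the 5 genes. SYCP3 was at 2.44 CPM there (1.72 to 3.36), TERB2 at 9.37 CPM (7.89 to 11.04), MAJIN at 3.03 CPM (2.22 to 4.05), TERB1 at 1.12 CPM (0.653 to 1.80) and REC8 at 0.462 CPM (0.186 to 0.952). TERB2 alone stood clearly above the 1.91 CPM of female barcodes without cells. Male clusters 0 and 7 had SYCP3 at 185 and 163 CPM, TERB2 at 269 and 254 CPM, TERB1 at 4.28 and 3.91 CPM, and MAJIN at 10.9 and 9.03 CPM. In male cells of cluster 19 SYCP3 was at 302 CPM (294 to 310) and TERB1 at 9.90 CPM (8.44 to 11.5), above the intervals of male clusters 0 and 7, while TERB2 at 278 CPM and MAJIN at 9.24 CPM were close to them.

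**Figure D2:**
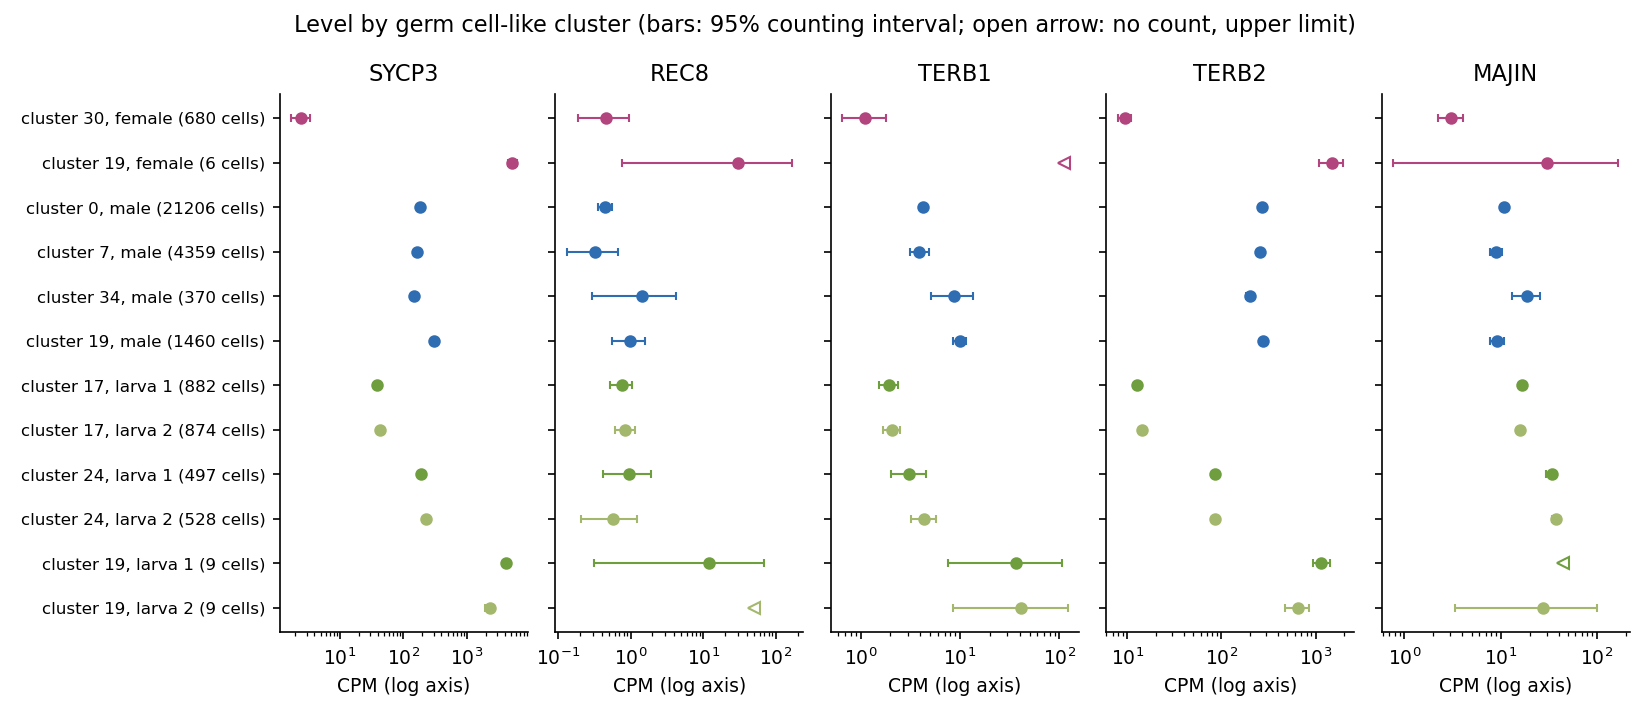
Level of each gene (CPM, log axis, scale differs between panels) in germ cell-like clusters of each library, with 95% counting intervals; an open arrow marks a set with no count, at its upper limit. SYCP3 and TERB2 are highest in the few female and larval cells of cluster 19, at 5244 and 1477 CPM in 6 female cells.

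A few female and larval cells held very high SYCP3. In cluster 19, SYCP3 was at 5244 CPM (4494 to 6084) in 6 female cells, and at 4162 CPM (3732 to 4628) and 2308 CPM (1972 to 2684) in 9 cells of each larva, against 302 CPM in the 1460 male cells. TERB2 was at 1477 CPM in those female cells and at 1147 and 646 CPM in those larval cells, against 278 CPM in the male ones. TERB1 was at 36.6 and 41.2 CPM in the larval cells of cluster 19, on 3 counts each, and had no count in the female ones. MAJIN had 1 count in the 6 female cells, none in the 9 cells of larva 1 and 2 in the 9 cells of larva 2. These counts are too few to tell whether its level was raised there. Its ratio to TERB2, given below, was lower than in female cluster 30 and larval cluster 24. None of these female and larval barcodes was a cell of another library.

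These rare cells also held other genes of meiotic recombination. SPATA22, which in mouse works with MEIOB on the single-stranded DNA of recombination sites, was at 1447 CPM (48 counts) in the 6 female cells, and at 1013 and 508 CPM in the larval cells, against 16.2 CPM in male cells of cluster 19. MEIOB was at 603 CPM in the female cells and at 854 and 618 CPM in the larval cells, against 46.5 CPM in the male cells. SFR1, an accessory factor of strand exchange, was at 1386 CPM (female) and at 525 and 604 CPM (larvae), against 174 CPM in the male cells. TEX11 was at 362 CPM (female) and at 183 and 110 CPM (larvae), against 14.7 CPM in the male cells. SPO11, which makes the breaks that start recombination, was at 151 CPM (female) and at 85.4 and 54.9 CPM (larvae) on 5, 7 and 4 counts, against 15.6 CPM in the male cells. The sets are small and were formed from the expression of these same cells, so these values are a description.

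With a limit set after the values were seen, at least 1000 CPM and 10 counts of SYCP3, there were 4 such female cells, 27 male cells, and 16 cells in each larval library. They held 35.9% of all female SYCP3 counts, 0.866% of the male ones, and 11.1% and 7.71% of those of larvae 1 and 2. All 4 female cells were in cluster 19, with 28 to 66 SYCP3 counts each. No female cell with at least 10 SYCP3 counts was within 2-fold of the CPM limit. Cells with fewer counts were not looked at in this way, and the lowest of the 6 female cells of cluster 19 was at 533 CPM. Of the male cells, 17 were in cluster 19, and 52 male cells with at least 10 counts lay within 2-fold of the CPM limit. In larva 1, 8 of the 16 were in cluster 19 and 7 in cluster 24, and in larva 2, 6 were in cluster 19 and 6 in cluster 24. TERB2 had at least 1 count in 4 of 4 female cells, 26 of 27 male cells, 15 of 16 cells of larva 1 and 16 of 16 of larva 2. Without these cells, the remaining female germ cell-like cells had 3.88 CPM of SYCP3 and 9.93 CPM of TERB2, the male ones 189 and 266 CPM, and the larval ones 61.5 and 24.3 CPM (larva 1) and 72.8 and 26.4 CPM (larva 2). The log2 ratio of female over male germ cell-like cells was then -5.61 for SYCP3 and -4.74 for TERB2, compared with -3.71 and -4.39 with them.

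**Figure D3:**
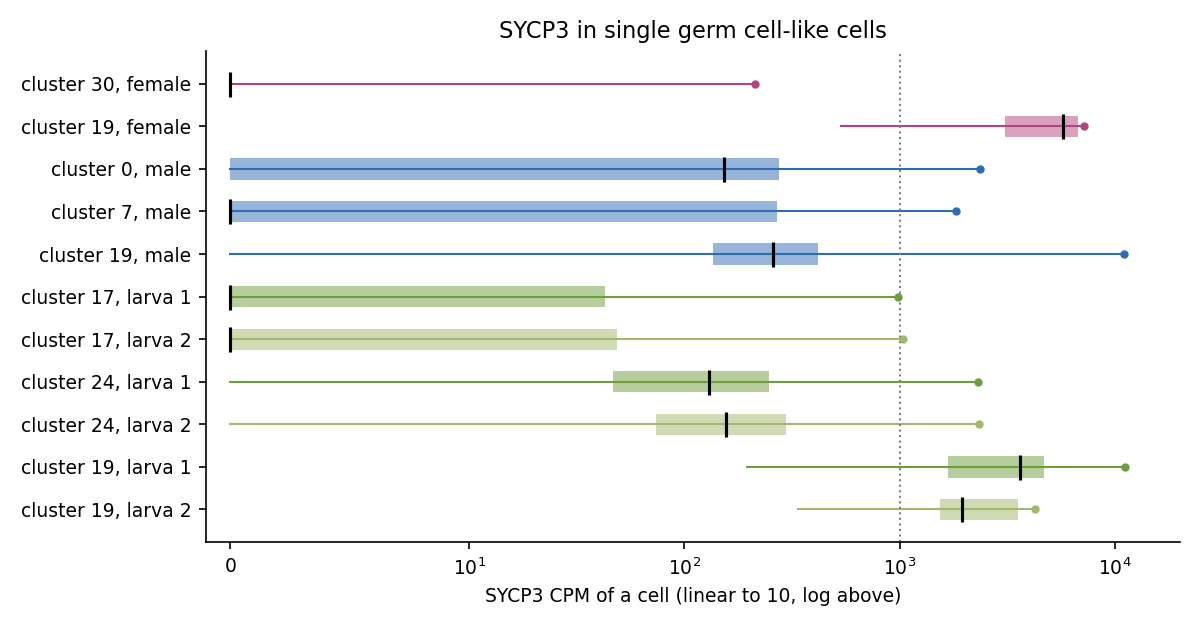
SYCP3 CPM of single cells in germ cell-like clusters (linear to 10, log above): lines run from the lowest to the highest cell, boxes over the middle quartiles, black ticks mark medians, and the dotted line is at 1000 CPM. The median of the 6 female cells of cluster 19 is 5739 CPM and that of female cluster 30 is 0.

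Since the clusters differ in depth, ratios of counts between the same genes were also taken. SYCP3 counts per TERB2 count were 0.261 (counting interval 0.176 to 0.376) in female cluster 30, 0.690 (0.680 to 0.699) in male cluster 0, 3.07 and 3.02 in larval cluster 17, and 2.22 and 2.65 in larval cluster 24. In cluster 19 the ratio was 3.55 (2.57 to 4.98) in female cells, 1.09 (1.04 to 1.13) in male cells, and 3.63 and 3.57 in larval cells. The female and larval cells of that cluster were thus close to each other in this ratio and apart from the male cells. The ratios of larval cluster 17 also lay within the intervals of these female and larval cells, so this ratio is not particular to them. Barcodes without cells had 0.833 (female), 0.666 (male, 0.633 to 0.700), 0.963 (larva 1) and 1.29 (larva 2) SYCP3 counts per TERB2 count. The ratio of male cluster 0 lay within that male interval, but these male barcodes include some called cells.

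MAJIN counts per TERB2 count were 0.324 (0.227 to 0.455) in female cluster 30, 0.0408 (0.0390 to 0.0426) in male cluster 0, 1.30 and 1.09 in larval cluster 17, and 0.397 and 0.439 in larval cluster 24. In cluster 19 the ratio was 0.0204 (0.000506 to 0.119) in female cells and 0.0333 (0.0281 to 0.0391) in male cells. It was 0.0426 (0.00501 to 0.163) in cells of larva 2, and the 0 of 94 in larva 1 allows up to 0.04002. The larval ratio was thus lower in cluster 24 than in cluster 17 and lower again in cluster 19, in both libraries. Other cells had 1.52 (female), 0.116 (male), 1.32 (larva 1) and 1.16 (larva 2) MAJIN counts per TERB2 count, while barcodes without cells had 1.17 (female), 0.0546 (male), 0.568 (larva 1) and 0.845 (larva 2).

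**Figure D4:**
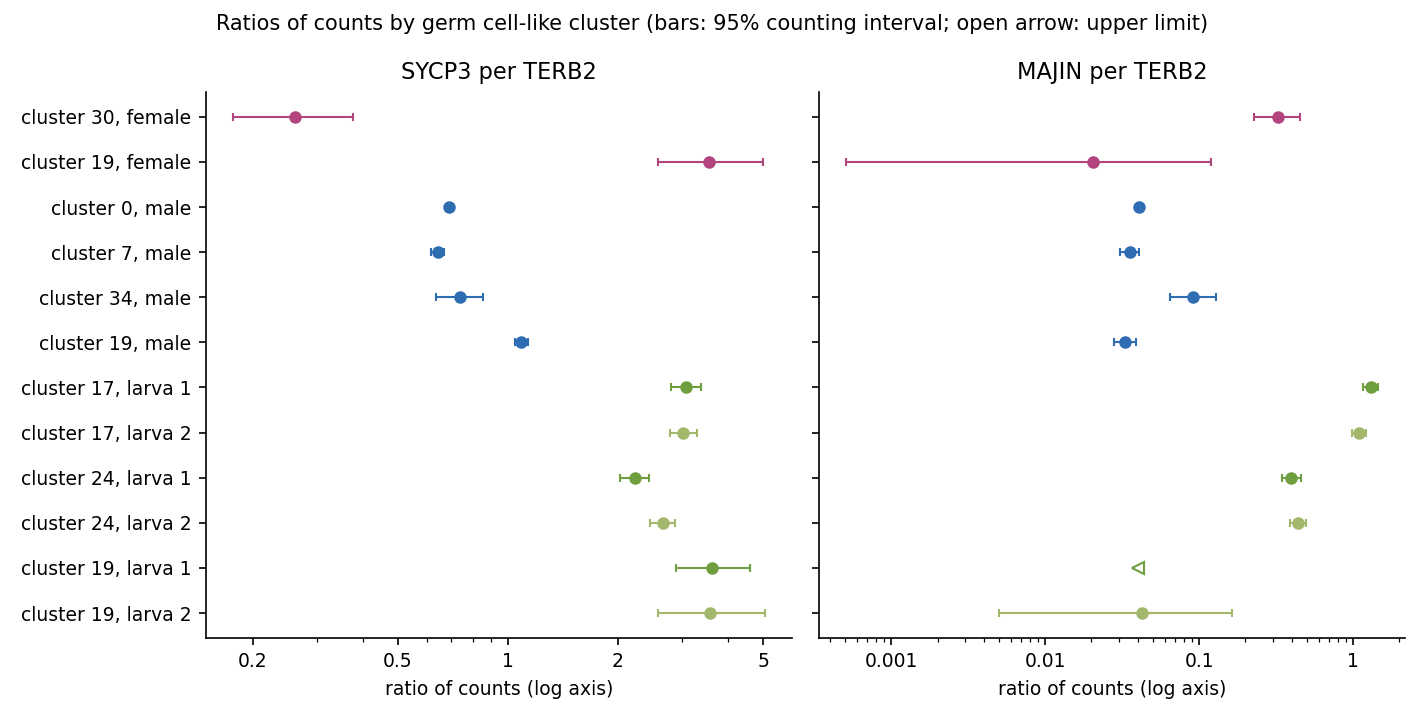
Counts of SYCP3 and of MAJIN per count of TERB2 (log axis) in germ cell-like clusters of each library, with 95% counting intervals; the open arrow marks an upper limit. MAJIN per TERB2 lies at 1.30 and 1.09 in larval cluster 17, at 0.397 and 0.439 in larval cluster 24 and at 0.0408 in male cluster 0.

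Outside the germ cell-like clusters MAJIN was higher in the larvae than in either transformer. Cells outside the germ cell-like and mixed clusters had 1.84 CPM of MAJIN in the female library and 1.77 CPM in the male library, against 5.98 and 5.02 CPM in the larvae. The larval values lay below the 9.06 and 9.51 CPM of larval barcodes without cells, and the part of free RNA in them was not tested. These larval cells held 37.9% and 33.9% of the MAJIN counts of larvae 1 and 2, which was less than their 64.0% and 63.8% of all counts. They held 7.44% and 6.30% of the SYCP3 counts and 25.3% and 23.9% of the TERB2 counts. Their shares were larger for TERB1 (48.0% and 40.9%) and REC8 (57.0% and 60.3%). Over the 16 such clusters with at least 200 cells in each larva, MAJIN ranged from 1.24 to 9.51 CPM in larva 1 and from 1.14 to 8.91 CPM in larva 2. It was lowest in cluster 33 in both, on 1 count in each. It was highest in cluster 20 in larva 1 (9.51 CPM) and in cluster 16 in larva 2 (8.91 CPM). Cluster 16 was at 8.98 CPM in larva 1, and its leading genes UBE2C and KIF23 belong to dividing cells. Of the 24 germ cell markers found, only DDX4 was raised in clusters 16 and 20, while 4 and 3 of 6 stromal markers were. Cluster 16 also had 1 renal tubule and 1 supporting cell marker raised, and cluster 20 had 1 renal tubule and 1 endothelial marker. Among the 16 clusters compared, TERB1 was highest in the renal tubule-like cluster 13, at 3.56 and 2.99 CPM in larvae 1 and 2.

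The share of cells with at least 1 count was taken after thinning each cell at random to that minimum of counts, since cells differ in depth. SYCP3 was then found in 0.297% of female cells, 20.6% of male cells, 1.62% of cells of larva 1 and 1.46% of larva 2. Without thinning the shares were 0.860%, 54.1%, 5.72% and 5.97% in the same order. In endothelial-like cells, which should lack the gene, the thinned shares were 0.465% of 1722 female cells (exact binomial interval 0.201% to 0.913%), 2.75% of 109 male cells (0.571% to 7.83%), and 0.274% and 0.866% of 730 and 808 larval cells, with median depths of 3474.5, 2719, 3289 and 3430 counts. The share over all female cells was thus no higher than this background.

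Among germ cell-like cells, thinned shares for SYCP3 were 1.16% (female, 0.501% to 2.27%), 27.3% (male), 15.5% (larva 1) and 14.7% (larva 2). For TERB2 they were 2.60% (female, 1.55% to 4.09%), 36.3% (male), 6.81% (larva 1) and 7.30% (larva 2), against 0.407%, 1.83%, 1.10% and 0.495% in endothelial-like cells. MAJIN was found in 0.724% of female, 1.79% of male, and 4.44% and 3.86% of larval germ cell-like cells, against 0.290% of female, 0 of 109 male (which allows a share of up to 2.75% by 3 cells and 3.33% by the exact interval), and 0.685% and 0.619% of larval endothelial-like cells. TERB1 was found in 0.145% of female, 0.775% of male, and 0.430% and 0.702% of larval germ cell-like cells, of which only the share in larva 2 lay above the endothelial-like interval (0 of 808 cells, which allows up to 0.371% by 3 cells and 0.456% by the exact interval). The male endothelial-like interval (0.0232% to 5.01%, 109 cells) was too wide to judge the male share (0.675% to 0.886%). In the 9276 male cells outside the germ cell-like and mixed clusters the TERB1 share was 0.129% (0.0669% to 0.226%). REC8 was found in at most 0.211% of germ cell-like cells of any library, within the endothelial-like intervals.

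Overlap in single cells was followed first through SYCP3 and TERB2, the pair found in most cells. Over all cells, TERB2 was found in 5.49% of female, 36.4% of male, and 13.8% and 11.7% of larval cells with SYCP3, against 0.272% of female, 25.5% of male, and 1.03% and 1.08% of larval cells without SYCP3. Within germ cell-like cells it was found in 5 of 8 female cells with SYCP3 (62.5%, 24.5% to 91.5%) against 1.90% of those without. In female cluster 30 none of the 680 cells held more than 1 of the 5 genes at this depth, and SYCP3 was found in 1 of them, against 6 of 6 female cells of cluster 19. In male germ cell-like cells the shares were 37.4% with SYCP3 (36.3% to 38.5%) and 35.9% without, and within cluster 0 they were 37.0% (35.7% to 38.2%) and 36.6%. At equal depth the male shares with and without SYCP3 thus differed by far less than the larval ones. In larval germ cell-like cells TERB2 was found in 17.1% (12.4% to 22.8%) and 16.2% (11.5% to 21.9%) of cells with SYCP3, against 4.92% and 5.76% of those without. Within cluster 24 the larval shares were 17.2% (11.5% to 24.4%) and 13.4% (8.25% to 20.1%) with SYCP3, against 11.1% and 14.2% without, so within that cluster the share without SYCP3 lay just under the interval of the share with it in larva 1 and inside it in larva 2.

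MAJIN overlapped less clearly. TERB2 was found in 32.4% (28.3% to 36.7%) of male germ cell-like cells with MAJIN, against 36.4% of those without, and in 12.9% (5.74% to 23.9%) and 10.9% (4.11% to 22.2%) of larval ones with MAJIN, against 6.53% and 7.15% without. SYCP3 was found in 24.8% of male germ cell-like cells with MAJIN against 27.3% without, and in 17.7% and 21.8% of larval ones against 15.4% and 14.5%. The shares without MAJIN lay within the intervals of those with it. At full depth, where deeper cells hold more of every gene, 4 of the 5 genes were found together in 1 of 691 female and 88 of 27474 male germ cell-like cells, against 55 of 1395 of larva 1 and 82 of 1425 of larva 2. All 5 were found together in no female or male germ cell-like cell, in 6 of larva 1 and in 5 of larva 2. Median depths of germ cell-like cells were 12222 (female), 8120.5 (male), 15129 (larva 1) and 19453 (larva 2) counts. At equal depth, exactly 3 genes were found in 0.145% of female, 0.277% of male, and 0.287% and 0.281% of larval germ cell-like cells. Exactly 2 were found in 4 of 691 female, 3024 of 27474 male, 47 of 1395 (larva 1) and 45 of 1425 (larva 2) cells. Exactly 4 were found only in 2 male cells. The larval excess at full depth was thus not seen at equal depth.

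**Figure D5:**
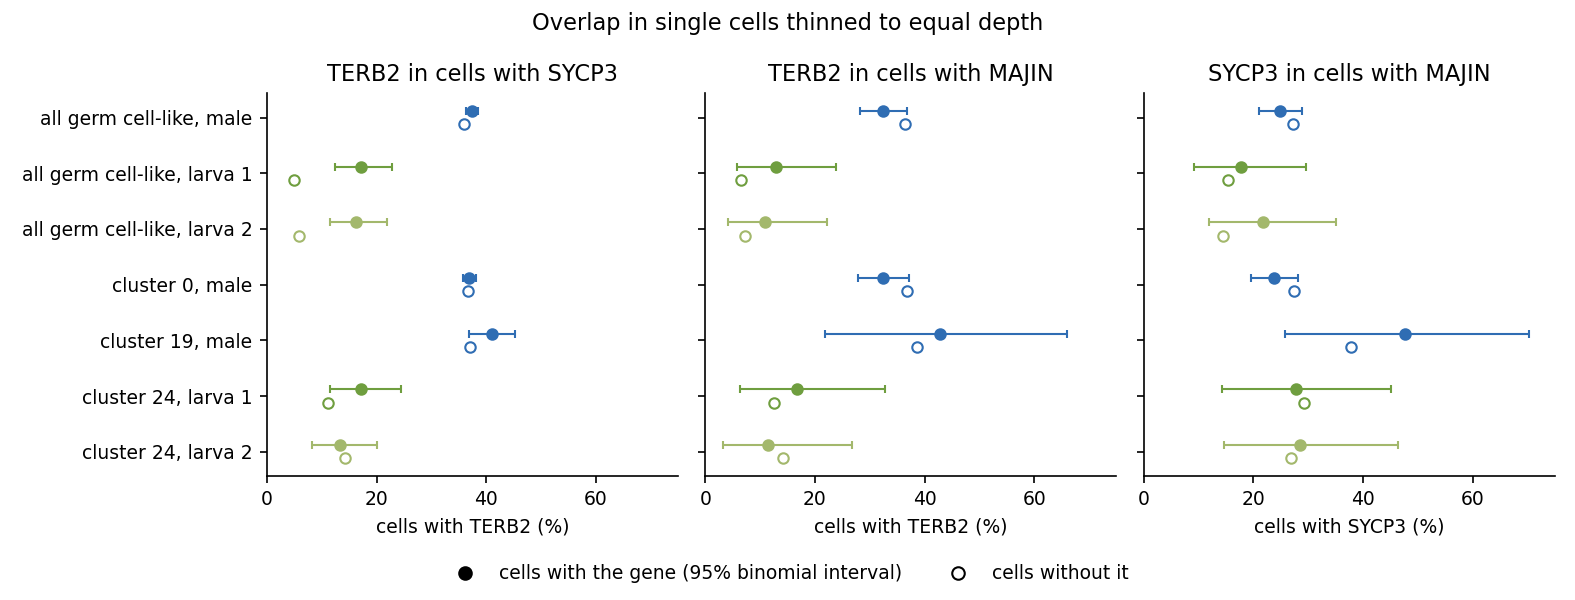
Share of cells with the second gene (%) among cells with the first gene (filled, 95% binomial interval) and without it (open), in germ cell-like cells thinned to equal depth. TERB2 is found in 17.1% and 16.2% of larval germ cell-like cells with SYCP3 against 4.92% and 5.76% without, and in 37.4% of male ones with SYCP3 against 35.9% without.

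Across single cells of a library, SYCP3 and TERB2 had Pearson correlations of 0.36 (male), 0.36 (larva 1) and 0.35 (larva 2), where depth and cell class are shared by both genes. The same correlation was 0.06, 0.12 and 0.15 for SYCP3 and MAJIN, too weak in such sparse counts to be a finding. The features most like SYCP3 over these 3 libraries were LOC116952996 (mean r 0.53), LOC116937381 (0.53) and LOC116938199 (0.51), which have no symbol in the gene table. The same 3 features were the most like TERB2 (0.42, 0.41 and 0.41). REC8 had too few counts for this comparison in every library, and TERB1 in all but the male one, where its correlations were 0.06 with SYCP3, 0.05 with TERB2 and 0.02 with MAJIN.

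Of 104 genes listed for the axis, cohesin, telomere attachment, recombination and meiotic entry, 50 were in the feature list, 45 of them besides the 5 genes. Over all cells, 21 of the 45 had a log2 ratio of female over male of -1 or lower (18.6% of all features did) and 2 had 1 or higher (14.6%), with a median of -0.75 against -0.01 over all features. In germ cell-like cells 15 had -1 or lower (23.3% of features) and 11 had 1 or higher (19.6%), with a median of -0.35 against -0.06. The low side was mostly recombination genes, 11 of 25, and cohesin genes were divided, with 1 of 8 at -1 or lower and 3 of 8 at 1 or higher.

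Among germ cell-like cells several genes of recombination and meiotic entry stood with SYCP3 and TERB2. BOLL had 0.722 CPM in female cells, 39.7 CPM in male cells and 16.5 and 21.2 CPM in the larvae. ANKRD31, which in mouse is needed for the placing of breaks, had 1.05 CPM in female cells, 41.9 CPM in male cells and 18.95 and 19.8 CPM in the larvae. MEIOB had 1.84 CPM in female cells, 27.9 CPM in male cells and 3.34 and 3.15 CPM in the larvae, and HSF2BP, a partner of BRCA2, had 20.4 CPM in female cells, 218 CPM in male cells and 158 and 163 CPM in the larvae. LMNB1, a nuclear lamin, had 5.91 CPM in female cells, 36.7 CPM in male cells and 11.02 and 12.1 CPM in the larvae. In each of these 5 genes the male library was highest and the female lowest.

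Other listed genes went the opposite way. CDCA5, which protects cohesin until mitosis, had 79.5 CPM in female germ cell-like cells, 10.7 CPM in male ones and 28.6 and 31.3 CPM in the larvae. POT1, which binds the single-stranded end of telomeres, had 60.0 CPM in female cells, 14.8 CPM in male cells and 29.0 and 28.2 CPM in the larvae. EXO1, a nuclease, had 48.7 CPM in female cells, 10.7 CPM in male cells and 16.3 and 17.01 CPM in the larvae. The female library was the highest in each, so that the female germ cell-like cells were not low in every gene of these lists.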

How the data were processed

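Per the file headers, the authors deposited 1 integer matrix of counts per library with unfiltered barcodes. Whether a count is a molecule or a read, the aligner, build and annotation are not given in the sources used here. Left out of sums were 24 features whose names start with the word unassigned (2.53% to 4.89% of counts in cells). The files held 239024376 to 406358335 counts per library. Members and gene lists were chosen with earlier results of these data known. Named genes were the 5 members, genes of the lists and the 3 features most correlated with each member.

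Levels and shares used all cells that met the 2 minimums. For clusters, cells over 20% mitochondrial counts and cells in the top scores of Scrublet (percentile 95 and up) were removed, since its automatic threshold marked 5.18% of female cells and 0% elsewhere. scanpy 1.11.5 used 1991 variable genes (1 member, SYCP3, had been among them and was left out), 30 components, 15 neighbours and Leiden clustering at resolution 1, which gave 41 clusters. Germ cell-like clusters had at least 3 raised germ cell markers, and 3 clusters with somatic leading genes were set aside as mixed. Stage tests used edgeR 4.0.16 (TMM, quasi-likelihood, two-sided, Benjamini-Hochberg) and DESeq2 1.42.0 on counts summed per library. Only the edgeR test was also run on simulated data, where both transformer libraries shifted alike. The simulated spread was set below the coefficients of variation of these libraries, 0.466 (all cells) and 0.510 (germ cell-like cells). That run therefore does not show how the test performs here. The p-values measure the spread between these libraries only.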

Additional observations from a re-analysis of the deposited data

Results flagged for a closer look

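SYCP3, TERB1 and TERB2 lay below both larval libraries in the female and above both in the male transformer over all cells, as did 17.7% of 19308 features. The log2 ratio of the female library over the larval mean was -3.52 for SYCP3, -0.84 for TERB1 and -2.47 for TERB2. That of the male library over the larval mean was 2.68 for SYCP3, 1.44 for TERB1 and 4.27 for TERB2. With 1 library of each sex the difference between them was not tested. Germ cell-like cells were 2.38% of clustered female cells, 71.9% of male cells, and 7.48% and 7.30% of larval cells. Sums over all cells cannot tell this mix apart from RNA per cell.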

How the results depend on the processing

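Counts of features past the threshold were 0 by edgeR and 1829 (all cells) and 625 (germ cell-like cells) by DESeq2. Leaving out each library in turn gave 0 to 13509 and 0 to 12251. Log2 fold changes of transformer over larva reversed without the male library for SYCP3 (-3.07), TERB2 (-2.01) and TERB1 (-0.39) over all cells and for SYCP3 (-1.92), TERB2 (-0.65) and TERB1 (-0.65) in germ cell-like cells, and without the female library for MAJIN (0.25) over all cells. Of these, TERB1 did not pass the edgeR threshold in either set of cells and the others did. With their direction kept, the threshold was passed without the female library by SYCP3 (3.03), TERB1 (1.79) and TERB2 (4.62) over all cells and by SYCP3 (1.75), TERB1 (1.37), TERB2 (3.70) and MAJIN (-0.47) in germ cell-like cells, and without the male library by MAJIN (-1.90 and -2.22). The lone transformer library was then assumed to vary like the larval ones. Scaling by TMM factors raised log2 ratios over the larval mean by 0.42 (female) and 0.36 (male), and turned that of MAJIN in the male library to 0.26, against -0.10 by total counts. Without cells of at least 10 counts and 1000 CPM of SYCP3, a choice made after seeing the data, the log2 ratio of female over male was -6.83 for SYCP3 and -6.89 for TERB2 over all cells, and -5.61 and -4.74 in germ cell-like cells. Unthinned, TERB2 was found in 84.8% of male, 50.9% of larva 1 and 53.0% of larva 2 cells with SYCP3. Female over male ratios moved less than their counting error with TMM factors and a doubled count minimum in both sets of cells, and over all cells with doublets or cells over 20% mitochondrial counts removed. No paired analysis was possible because each transformer group has 1 library. Depth limits REC8 and TERB1, whose counts could not carry an overlap.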

Other observations

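TERB1 was highest, among clusters of at least 40 cells in a library, in an unnamed larval cluster of 52 cells in larva 1 and 40 cells in larva 2. It had 39.7 CPM there in larva 1 (20.5 to 69.3, 12 counts in 8 cells) and 42.2 CPM in larva 2 (19.3 to 80.1, 9 counts in 8 cells), against 1.40 and 1.44 CPM over all larval cells. SYCP3 had 2 counts in these cells in larva 1 and none in larva 2. The leading genes of the cluster included DNAH5, an axonemal dynein heavy chain, LRRC9 and PHF12. Of the marker lists, 3 germ cell genes (PIWIL2, TDRD9 and MEIOB) and 4 stromal genes were raised in it. So were 1 endothelial, 1 renal tubule and 1 supporting cell gene, and the cluster was given no name. The cluster was singled out after its values were seen.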
